A study of Rattus norvegicus with 8 samples.

Results

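The baseline transcriptome of cultured rat nucleus pulposus cells was described from the 4 control libraries among the 8 RNA-seq libraries of the series. Every library in the series came from primary nucleus pulposus (NP) cells of adult Sprague Dawley rats that had received a lentivirus carrying an ShRNA. The members were chosen by their labels alone: the cells labelled SIRT6Ctrl/ShCtrl, called Sirt6-Ctrl here, carried a control ShRNA, and the knockdown libraries were not used. The lentivirus was packaged in HEK 293T cells, a human embryonic kidney line, and transduced cells were selected with puromycin, so every value below is that of a cultured, transduced and drug-selected cell and not of disc tissue. The cells grew as primary cultures with serum, the record describes cells of 4 rats, and the 4 libraries, S1 to S4, are separate samples. The study's methods describe the rats as a few months old. Which rat, age, sex and passage belonged to each library was not given in the sources used here. The oxygen level of the cultures used for RNA was not given either. No groups were compared, so no test was possible and each value is given as a description with its spread over the 4 libraries.

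NP cells occupy the soft, hydrated centre of each disc of the spine. They descend from the embryonic notochord and live without a direct blood supply, which is why they are known for a glycolytic metabolism and for the hypoxia factor HIF-1. In the disc they make a matrix rich in the proteoglycan aggrecan and in type II collagen, and in monolayer culture cells of the disc are known to drift towards a fibroblast-like state.

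The libraries held between 31010859 and 38932384 reads on genes. The reads on ERCC spike-ins, synthetic RNAs added to a sample, made up a further 6.27%, 9.80%, 3.08% and 2.97% of the reads in S1, S2, S3 and S4. Levels are counts per 1000000 gene reads (CPM), scaled between libraries by the TMM method of edgeR. Means carry the SD over the libraries (n = 4), and 4 values in a row are those of S1, S2, S3 and S4 in that order. A count of 3 reads corresponded to between 0.0777 and 0.0930 CPM. Of 32883 genes in the table, 17213 had a read in any library and 10308 were at 1 CPM or more in all 4. Scaling to the spike-in reads instead moved the median gene by -0.38, -1.12, 0.76 and 0.74 on the log2 scale in S1, S2, S3 and S4. Under it S2 was the lowest library for 9592 of 11005 genes, and for 73 of the 258 genes valued here the highest library was no longer above the lowest. Every statement on which library was high or low is therefore relative to the gene reads of that library. S2 stood apart from the other libraries. Its Pearson correlations with them, on log2 CPM across 11005 genes, were 0.928, 0.894 and 0.896, against 0.942 to 0.954 among S1, S3 and S4. In S2, 235 genes had 3 reads or fewer while the other 3 libraries were all at 1 CPM or more, against 27 such genes in S1, 11 in S3 and 6 in S4.

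The order of genes by reads was led by matrix, secretory and glycolytic genes. Because no transcript lengths were at hand, it is an order of reads and not of transcripts, and longer transcripts collect more reads. The gene with the most reads was Col1a1, the α1 chain of type I collagen, with 16850.0, 12924, 13986 and 26948 CPM in S1, S2, S3 and S4. It was highest in S4 and had a mean of 17677 ± 6399 CPM. Fn1, fibronectin, followed with 15791, 11891, 17717 and 19974 CPM. The intermediate filament gene Vim, the collagen-binding glycoprotein gene Sparc and the endoplasmic reticulum chaperone gene Hspa5 came next among nuclear genes, with means of 10815 ± 1166 CPM, 9544 ± 1948 CPM and 9306 ± 1758 CPM. Vim varied little, with its highest library only 1.26-fold above its lowest.

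Mt-co1, the mitochondrial cytochrome oxidase subunit, had rank 3 in the order, at 11194 ± 2859 CPM. The ferritin light chain gene Ftl1 had rank 7, at 7837 ± 3143 CPM. Other genes among the 25 with the most reads fell into a few familiar groups. The chaperones and folding factors of the secretory pathway were represented by Hsp90b1 at 7771 ± 1535 CPM, Calr at 4289.9 ± 783 CPM and P4hb at 4032 ± 429 CPM. P4hb is also a subunit of the enzyme that hydroxylates prolines in collagen. The glycolytic enzymes Eno1, Gapdh, Aldoa, Pgk1 and Ldha lay close together, between 3564 CPM for Ldha and 4011 CPM for Eno1 on average. Pgk1 differed by only 1.15-fold across the libraries and Aldoa by 1.997-fold. Secreted members included the matrix genes Ccdc80, Thbs2 and Lox and the matricellular gene Ctgf. The translation factors Eef1a1 and Eef2 and the cytosolic chaperones Hspa8 and Hsp90ab1 also belonged to the 25, together with AC134224.3, a gene known in the table only by its clone name, which varied by 6.90-fold and was highest in S2.

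The 100 genes with the most reads took 28.3%, 28.7%, 26.4% and 28.3% of the gene reads in S1, S2, S3 and S4. The share was alike in the 4 libraries.

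**Figure D1:**
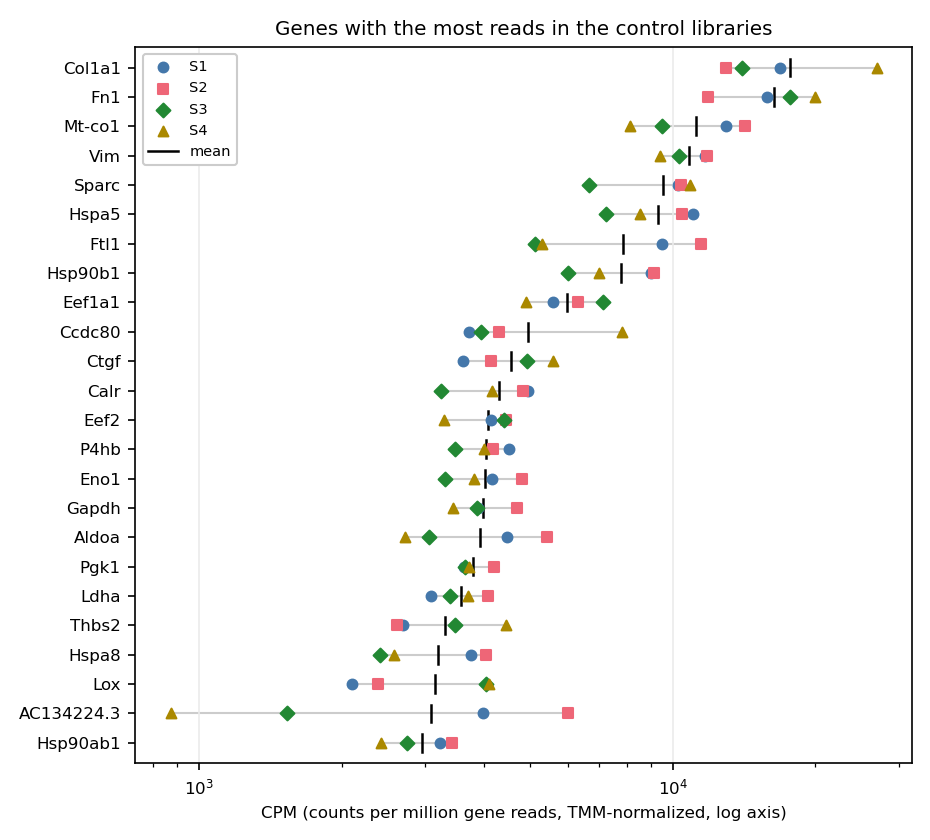
CPM in each of the 4 Sirt6-Ctrl libraries, on a log axis, for genes among the 25 with the most reads, ordered by their mean (vertical bar). Col1a1 and Fn1 lie at the top, Pgk1 and Vim show tightly grouped libraries, and AC134224.3 is spread 6.90-fold.

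Matrix genes on the list of 134 took 8.72%, 7.60%, 9.30% and 12.5% of gene reads, with S4 highest. Among the fibrillar collagens, Col5a2 followed Col1a1 with 1856, 1458, 2706 and 3837 CPM. Col3a1 averaged 1105 ± 356 CPM, Col11a1 859 ± 295 CPM and Col5a1 771 ± 385 CPM. S4 was the highest library for 8 of the 9 fibrillar collagen genes that passed edgeR's expression filter, against 23.3% of all genes that passed it. The row of Col1a2, which codes for the partner chain of Col1a1 in type I collagen, held only 0.915, 1.07, 2.51 and 2.77 CPM. Rows of several genes that every cell uses were as low, with 1.58 ± 0.261 CPM for the glycolytic enzyme gene Tpi1 and 2.64 ± 1.79 CPM for the ribosomal protein gene Rpl8, so a low row of such a gene cannot be read as low expression here. Whether reads of these genes went uncounted was not tested. Col2a1, the gene of the type II collagen for which the tissue is known, is not analysed here, and Col9a1, its type IX partner, had at most 2 reads in a library.

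Of the beaded filament collagens of type VI, Col6a2 was steady and Col6a1 less so. Col6a2 had 1482, 1337, 1262 and 1459 CPM, a 1.17-fold range. Col6a1 had 923, 682, 989 and 1245 CPM, a 1.83-fold range. Of the network-forming collagens, Col8a2 averaged 347 ± 39.0 CPM and Col4a1 260.0 ± 118 CPM. Other collagen genes were less even. Col8a1 was at 129, 141, 405 and 585 CPM. Col12a1, a collagen that decorates type I fibrils, was at 179.6, 159, 678 and 629.7 CPM. For both genes S1 and S2 were low and S3 and S4 high.

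The small leucine-rich proteoglycan gene Bgn, biglycan, was read strongly and evenly, with 2327, 2518, 2127 and 2397 CPM. Prelp averaged 571 ± 132 CPM, Fmod 267 ± 78.1 CPM, Dcn 212 ± 66.6 CPM and Lum 13.7 ± 5.69 CPM. On average the large proteoglycan genes Acan and Vcan drew fewer reads than Bgn, Prelp, Fmod or Dcn, though more than Lum. Acan, the gene of aggrecan, was at 4.66, 14.9, 9.30 and 59.5 CPM, so that its mean of 22.1 CPM rested largely on S4, without which the range fell from 12.8-fold to 3.19-fold. Vcan, versican, was at 27.1, 81.3, 139 and 84.2 CPM. Hapln1, the link protein that ties aggrecan to hyaluronan, averaged 8.68 ± 5.46 CPM. The cell surface receptor for hyaluronan, Cd44, averaged 678 ± 97.3 CPM and the glypican gene Gpc1 476 ± 40.7 CPM.

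Of the adhesive and matricellular glycoprotein genes, 18 of 29 that passed the filter differed more than 2-fold between the highest and the lowest library, against 41.6% of all genes. Ctgf had 3604, 4127, 4914 and 5584 CPM, a 1.55-fold range. Thbs1, thrombospondin 1, had 995, 608, 1829 and 4913 CPM, with S4 far above the others and a range of 8.08-fold, or 3.01-fold without S4. Mgp, an inhibitor of calcification, had 646, 734, 168 and 1315 CPM and was lowest in S3. S4 stood out again for Tnc, tenascin C, which was at 195, 187, 296 and 1255 CPM, within a 1.59-fold range once S4 was left out. Its relative Tnn had 53.3, 149, 449 and 434 CPM, low in S1 and highest in S3 and S4.

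Spp1, osteopontin, averaged 2473 ± 1121 CPM, and the latent TGF-β binding protein gene Ltbp2 led the elastic fibre list at 1876 ± 486 CPM. Thbs4, a thrombospondin of tendon, was at 1.83, 8.90, 32.8 and 27.6 CPM, with S1 lowest. The most read genes of collagen modification and crosslinking stood at high levels in every library. Of the 23 genes on that list, 21 averaged 10 CPM or more. Lox, lysyl oxidase, had 2098, 2382, 4029 and 4097 CPM, with S1 and S2 low and S3 and S4 high, as for Col12a1. The collagen chaperone gene Serpinh1 had 2215, 2202, 1394 and 2184 CPM and was lower in S3 than in the other libraries. Plod2 averaged 1122 ± 334 CPM and P4ha1 653 ± 291 CPM.

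**Figure D2:**
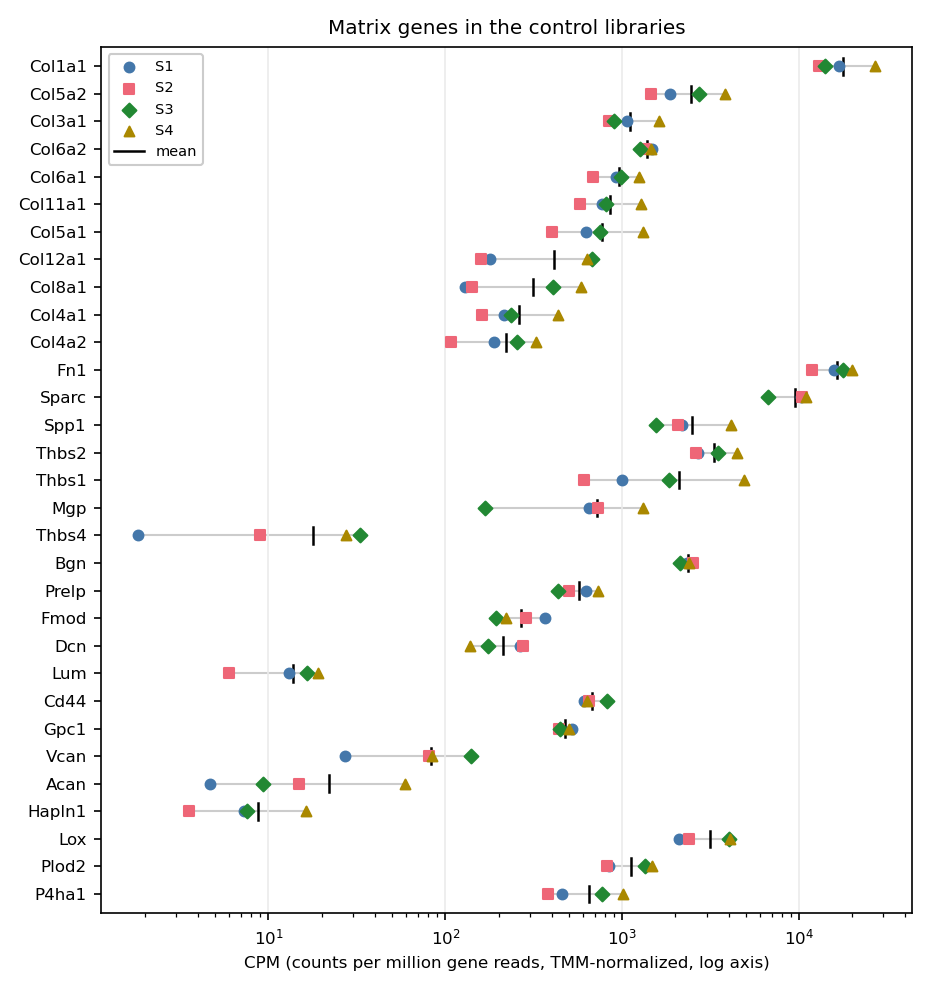
CPM in each Sirt6-Ctrl library, on a log axis, for matrix genes in the order of collagens, glycoproteins, proteoglycans and modifying enzymes, with the mean as a vertical bar. The libraries of Col6a2, Bgn and Gpc1 nearly coincide, whereas S4 stands to the right for Thbs1 and Acan and S3 to the left for Mgp.

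The 150 cytoskeletal genes took 4.81% of reads in S1 and 6.13% in S4, with S2 and S3 between. The non-muscle actins led the actin list, and Actb had 2134, 2588, 2383 and 3643 CPM. Actg1 had 1650.1, 1842, 2791 and 1801 CPM, so S4 was highest for the first and S3 for the second. Flna, which crosslinks actin filaments, averaged 1426 ± 540.4 CPM, Cfl1, which severs them, 1175 ± 146 CPM, and Cald1, a caldesmon, 975 ± 343 CPM. Behind Vim, the intermediate filament list held the lamin gene Lmna at 602 ± 73.2 CPM, Plec at 393 ± 44.7 CPM and the muscle filament gene Des at 153 ± 39.9 CPM. Keratin 8, Krt8, a filament of notochordal NP cells, was at 10.98, 6.74, 3.94 and 5.13 CPM.

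Tubb5 led the tubulins at 594 ± 97.8 CPM and Myo1c the myosins at 884 ± 262 CPM. The focal adhesion list was led by the integrin gene Itgb1 at 1564 ± 430.3 CPM and the annexin gene Anxa2 at 1356 ± 161 CPM. Vcl, vinculin, which links integrin adhesions to actin, had 234, 303, 838 and 439 CPM and was highest in S3. Contractile genes of smooth muscle and of activated fibroblasts were present at levels that differed sharply between the libraries.

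Secreted proteins on the list of 187 genes took a median of 3.69% of reads. The protease list was led by the lysosomal and secreted cathepsin gene Ctsb at 2616 ± 366 CPM, and the serine protease gene Htra1 averaged 1822 ± 262 CPM. The membrane-anchored Mmp14 had 699, 698, 637 and 678 CPM, which made it one of the steadiest genes of the list, and Mmp2, which MMP14 activates, averaged 319 ± 47.4 CPM. Mmp3, stromelysin 1, had 364, 525, 688 and 259.7 CPM. Mmp13, a collagenase, had 60.6, 95.4, 167 and 42.2 CPM. Both genes were lowest in S4 and highest in S3. Adamts1 was the most read ADAMTS gene, at 349.8 ± 199.6 CPM. Rows of Mmp1 and Mmp12 had at most 1 read in a library.

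Among the protease inhibitors, Timp2 was steady at 1170.4 ± 87.8 CPM, while Serpine2 averaged 816 ± 243 CPM and Timp1 199 ± 45.0 CPM. Grem1, gremlin, an antagonist of BMPs, had 1719.8, 1633, 2379 and 4194 CPM and was the most read growth factor antagonist. Igfbp7 averaged 594 ± 66.4 CPM and Dkk3 607 ± 132 CPM.

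Of the growth factors, Grn, progranulin, averaged 1156 ± 196 CPM and Vegfa had 928, 887, 1263 and 389 CPM. S4 was the lowest library for Vegfa, which ranged 3.25-fold with it and 1.43-fold without. Tgfb3, in contrast, was highest in S4, at 271, 297, 317 and 897 CPM. Bmp4 showed the same departure, at 18.2, 18.2, 20.1 and 171 CPM, with a range of only 1.11-fold among S1, S2 and S3. Hbegf averaged 230.3 ± 81.4 CPM, Inhba 145 ± 88.6 CPM and Bdnf 116 ± 19.9 CPM.

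Cytokines and chemokines drew few reads beside the matrix genes. Cxcl1, a chemokine for neutrophils, had 201, 241, 256 and 356 CPM. Ccl2, a chemokine for monocytes, had 36.8, 45.7, 43.5 and 222 CPM. Its neighbour in function Ccl7 had 14.4, 8.93, 15.1 and 78.0 CPM. Both were highest in S4, and without S4 they ranged 1.24-fold and 1.69-fold. Csf1, the macrophage growth factor, was likewise highest in S4, at 56.1, 49.4, 57.3 and 153 CPM. Other secreted immune genes were lowest in S4. The chemokine gene Cxcl6 was at 25.2, 31.8, 6.14 and 1.94 CPM. The granulocyte factor gene Csf3 was at 13.96, 24.9, 38.8 and 2.93 CPM. The siderophore-binding Lcn2 was at 418, 495, 325 and 63.9 CPM, within 1.52-fold when S4 was left out. Il6 averaged 10.6 ± 3.31 CPM and Lif 32.5 ± 13.7 CPM, and Csf2 had no read in any library, which allows up to 0.0930 CPM in the library with the highest floor of 3 reads.

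Transcription factors on the list of 239 genes took between 1.61% and 1.80% of reads. The most read were Tsc22d1, which responds to TGF-β, at 1637 ± 372 CPM, and the stress factor Atf4 at 1282 ± 425 CPM. Its partner in the stress response, Ddit3, had 813, 861, 371 and 442 CPM. S1 and S2 were above S3 and S4 for Ddit3. The AP-1 members Junb and Jund averaged 530.4 ± 38.9 CPM and 428 ± 105 CPM. Hif1a, the hypoxia-inducible factor of NP cells, had 142, 180.3, 319 and 238 CPM and was highest in S3.

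Patterning factors of the trunk skeleton were read in every library. Pax1, a factor of the sclerotome and the developing disc, had 76.3, 75.8, 63.3 and 78.7 CPM. Foxf1, a factor of NP and notochord, had 55.7, 57.8, 41.4 and 53.3 CPM. Both differed little between the libraries. Sox9, the master regulator of cartilage matrix genes, was at 6.29, 15.1, 5.67 and 5.00 CPM, with S2 highest. Scx, a factor of tendon and annulus, was at 49.96, 59.1, 31.8 and 122 CPM, with S4 highest. The Hox genes, which mark position along the body axis, were led by Hoxc10 at 57.4 ± 19.9 CPM, Hoxb9 at 44.6 ± 16.2 CPM and Hoxd9 at 24.4 ± 10.5 CPM.

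Of 18 Hox genes that passed the filter, 14 differed more than 2-fold, against 41.6% of all genes, and only 8 averaged 10 CPM or more. The posterior genes Hoxd10, Hoxd11 and Hoxd13 were read at low levels and differed widely from library to library. Hoxd10 was at 11.8, 0.653, 8.52 and 5.93 CPM. Hoxd11 was at 1.27, 13.8, 7.99 and 0.803 CPM. Hoxd13 was at 0.0885, 3.59, 7.25 and 1.19 CPM. Hoxd10 was thus lowest in S2, where Hoxd11 was highest, and Hoxd13 was highest in S3. The S1 value of Hoxd13 was the floor of 3 reads in that library. Sim2, another patterning factor, chosen after its values were seen, had 3.25, 8.87, 29.9 and 57.2 CPM. Sirt6 itself, the target of the series, was even among the controls, at 58.0, 52.1, 55.2 and 50.8 CPM.

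The label of the cells was checked against 16 NP and notochord markers that had a named row. The glucose transporter gene Slc2a1 had 1166, 1491, 2182 and 592 CPM and was lowest in S4. The galectin gene Lgals3 averaged 494 ± 138 CPM, Basp1 179.8 ± 43.6 CPM, Cdh2, N-cadherin, 58.0 ± 31.0 CPM and Cd24 38.5 ± 13.8 CPM. Car12, a carbonic anhydrase of NP cells, had 18.1, 12.1, 78.5 and 9.48 CPM, with S3 alone raised, and Car3 averaged 16.3 ± 4.63 CPM. Chrd, a notochordal antagonist of BMPs, averaged 9.85 ± 4.51 CPM. Of the notochordal factors, Foxa1 was at 0.0295, 0.0297, 0.465 and 0.492 CPM. Foxa2 was at 0, 0.0297, 1.43 and 0 CPM, and its highest value rested on 46 reads. Foxa1 and Foxa2 thus stayed under 2 CPM in every library, and Krt18, Krt19, T, Noto and Shh are not analysed here.

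Markers of other cells were low, with exceptions. The most read member of the tendon and annulus list was Col1a1, already described. The Schwann and glial gene S100b, which cartilage cells also express, had 214, 224, 139.5 and 216 CPM, and Ncam1 averaged 88.4 ± 41.1 CPM. The most read endothelial marker was Egfl7 at 25.1 ± 4.59 CPM, with Tek and Esam under 1 CPM. Of the leukocyte markers, Cd14 averaged 20.2 ± 7.71 CPM and Cd68 1.89 ± 0.789 CPM, with Csf1r and Cd74 under 1 CPM. The bone markers Runx2 and Alpl averaged 15.3 ± 4.04 CPM and 2.92 ± 0.337 CPM, and the adipocyte, epithelial, skeletal muscle and chondrocyte lists held no gene at a mean of 10 CPM or more. Smooth muscle and pericyte markers took 0.0329%, 0.0434%, 0.0565% and 0.171% of reads. In bulk RNA a smaller number of cells of a kind and less RNA per cell cannot be told apart.

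**Figure D3:**
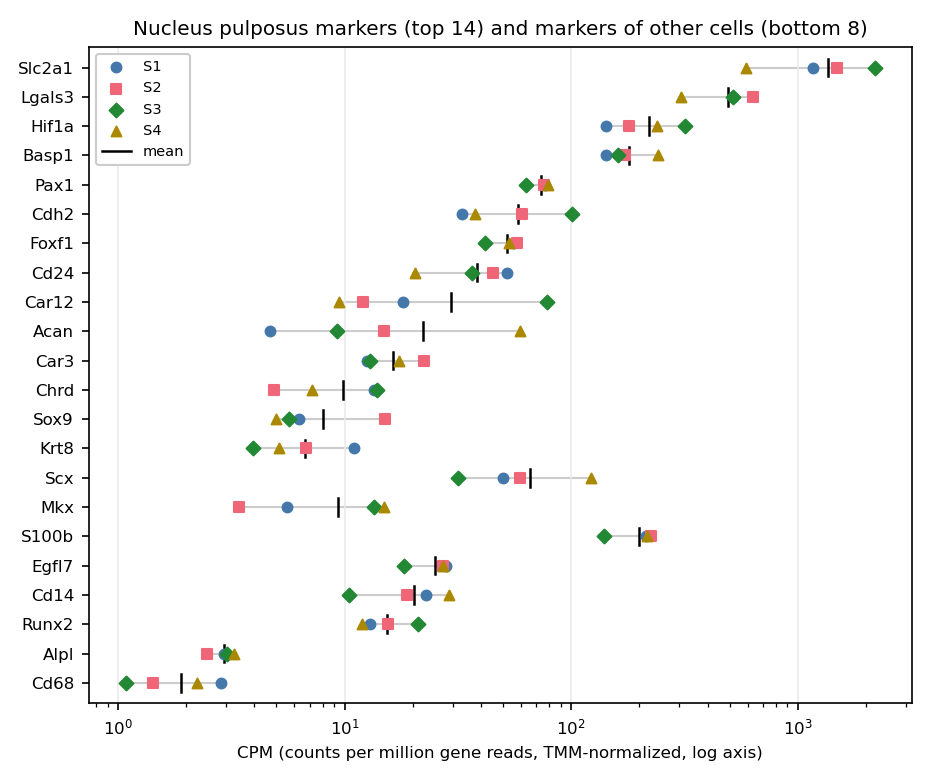
CPM in each Sirt6-Ctrl library, on a log axis, for NP markers (from Slc2a1 to Krt8) and markers of tendon, glial, endothelial, myeloid and bone cells (from Scx to Cd68), with the mean as a vertical bar. Pax1 and Foxf1 show close libraries, S3 stands alone for Car12, and Acan is spread 12.8-fold.

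The 4 libraries differed from each other by more than counting. Of 11005 genes that passed edgeR's filterByExpr, 4574 (41.6%) had a highest library more than 2-fold above the lowest. Of 8294 genes at a mean of 10 CPM or more, 432 (5.21%) passed 4-fold. For these better-read genes the median coefficient of variation over the libraries was 0.225, against 0.0253 from counting alone. Over all genes that passed filterByExpr, edgeR's common biological coefficient of variation was 0.388. S2 was the lowest library for 284 of the 432 genes, S1 for 83, S4 for 42 and S3 for 23. S3 was the highest for 225 and S4 for 154. Of all genes that passed the filter, S3 was highest for 26.3%, S4 was highest for 23.3% and S3 was lowest for 27.1%. The shares of all genes with S1, S2 or S4 lowest were not counted. The 432 genes were picked by these same values, so their counts by library are no test. The count of genes past 4-fold was 177 without S2, 257 without S3, 273 without S4 and 393 without S1.

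In a principal component analysis of the 500 most variable genes, the first component took 66.9% of the variance and set S2, at a score of 42.9, against S3 at -19.2 and S4 at -23.0. The second took 19.4% and set S1 apart, at 24.1. Without S2 the first component took 61.1%. Genes at the S2-low end of the first component included Rrm2, Snn, Ddhd2, Adcy7 and Trps1. At the S2-high end were Pou2f1, an octamer-binding factor, at 3.36, 12.0, 1.67 and 0.466 CPM, and the interferon-induced Rsad2, at 0.797, 11.7, 1.58 and 1.14 CPM. The second component separated S1 through contractile and other genes that were low in it, such as Cnn1 and Ect2, and Nr3c2, the mineralocorticoid receptor, which was at 0.708, 8.90, 7.68 and 7.67 CPM.

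The most variable gene of all those at 10 CPM or more, by the SD of log2 CPM, was Mylk, the kinase that starts smooth muscle contraction, with 0.856, 0.267, 8.89 and 43.4 CPM. It was followed by the relaxin receptor gene Rxfp1, with 1.30, 0.267, 4.06 and 54.4 CPM. Fam111a, a gene of a nuclear protease, was next, with 1.24, 0.475, 1.12 and 41.2 CPM. In all 3 genes S4 was far above the others. They were under 10 CPM in S1, S2 and S3, so they met the threshold on the mean only through S4. Mylk and Rxfp1 did not pass filterByExpr. Acta2, smooth muscle actin, was at 20.3, 32.5, 80.2 and 1120.3 CPM, which is 55.2-fold from lowest to highest and 3.95-fold without S4. Tagln, transgelin, had 190.1, 376, 514 and 1475 CPM. Cnn1, calponin, had 1.42, 6.68, 12.7 and 54.5 CPM. Lmod1, leiomodin, had 0.856, 1.16, 3.66 and 42.2 CPM. S1 was the lowest and S4 the highest library for Acta2, Tagln, Cnn1 and Lmod1. Lmod1, too, was under 10 CPM in S1, S2 and S3.

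Further genes of the contractile apparatus were highest in S4. Myh11, the heavy chain of smooth muscle myosin, had 8.47, 9.56, 6.17 and 46.5 CPM. Myl9, a light chain, had 35.1, 32.4, 41.3 and 161 CPM. Tpm1, a tropomyosin, had 141, 191, 241 and 628 CPM. In S1, S2 and S3 these genes lay closer together, within 1.55-fold for Myh11 and 1.28-fold for Myl9. Kcnj8, a potassium channel of pericytes, had 2.24, 0.208, 2.63 and 16.2 CPM. The pericyte proteoglycan gene Cspg4 had 81.7, 133, 122 and 189.8 CPM, again with S1 lowest and S4 highest. The muscle filament gene Des did not follow, with 141, 195, 173 and 103 CPM, lowest in S4. S4 was the highest library for 7 of the 8 smooth muscle and pericyte genes that passed the filter, against the 23.3% of all genes, and Notch3, a receptor of mural cells, stayed at a mean of 0.216 CPM. The part of other cell types in the level of these genes was not tested.

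Srf, the gene of the factor that drives many contractile genes through the CArG box, was even by comparison, at 65.6, 80.8, 102 and 72.9 CPM. The promoter of Acta2 is shown because this gene differed 55.2-fold between the libraries and is a textbook target of SRF. The window runs from 250 bases before to 50 after the start of the gene in RefSeq on GRCr8, chr1:241172454-241172753, minus strand, printed along the gene. Capitals mark stretches that differ from the CArG box by 1 base.
Acta2: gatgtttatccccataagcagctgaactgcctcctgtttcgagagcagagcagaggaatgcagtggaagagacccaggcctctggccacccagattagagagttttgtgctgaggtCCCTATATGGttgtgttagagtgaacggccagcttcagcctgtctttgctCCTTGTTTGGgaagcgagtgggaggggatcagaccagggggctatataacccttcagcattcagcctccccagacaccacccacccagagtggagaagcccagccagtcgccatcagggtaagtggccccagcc
The window held 2 such stretches and no exact CArG box. The motif is the same on both strands. An exact box was found in 1.64% of 33469 promoter windows of the same length, and a stretch within 1 base of it in 21.3% of them. Of 9 windows of smooth muscle and pericyte genes, 2 held the looser motif and 0 an exact box. Of 21 windows of YAP and SRF targets, the list that holds Acta2, 7 (33.3%) held the looser motif and 2 (9.52%) an exact box. These are matches of letters, and binding was not measured here.

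**Figure D4:**
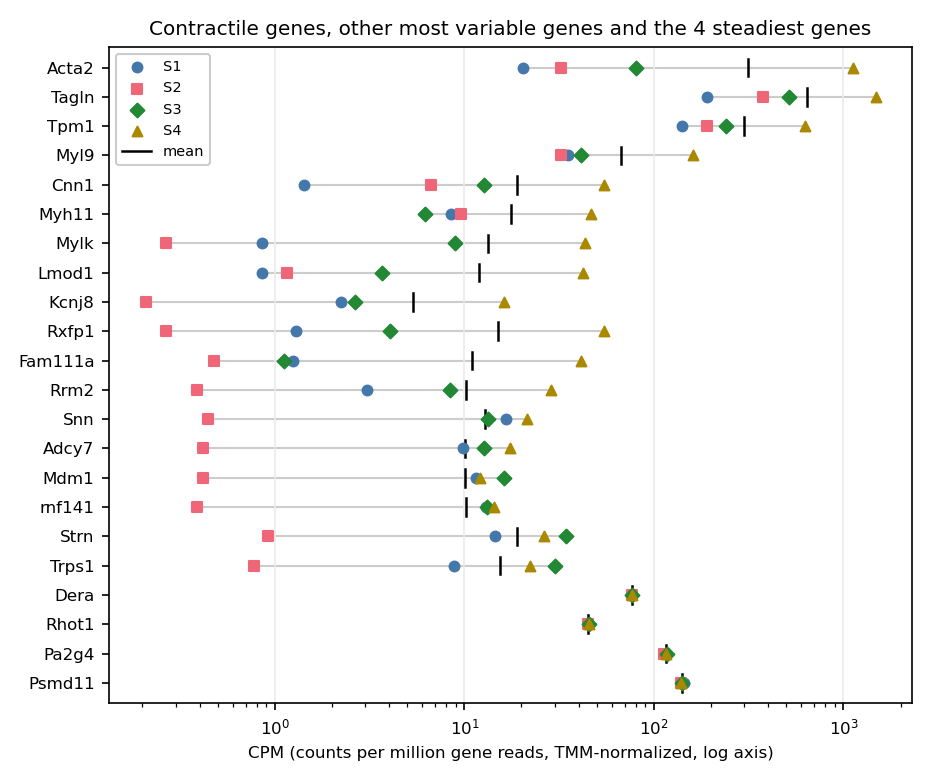
CPM in each Sirt6-Ctrl library, on a log axis, for contractile and pericyte genes (Acta2 to Kcnj8), other highly variable genes (Rxfp1 to Trps1) and the 4 genes with the smallest SD (Dera to Psmd11). S4 stands to the right in the first set, S2 far to the left from Rrm2 to Trps1, and the libraries coincide for the last 4 genes.

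A second set of variable genes was nearly missing from S2. Snn, stannin, had 16.5, 0.445, 13.3 and 21.3 CPM, a range that fell from 47.8-fold to 1.57-fold once S2 was left out. The ring finger gene rnf141 had 13.0, 0.386, 13.1 and 14.4 CPM, ranging 1.10-fold without S2. The adenylate cyclase gene Adcy7 had 9.77, 0.415, 12.6 and 17.3 CPM, or 1.76-fold without S2. Mdm1, Strn, Trps1, Tmem104, Creb3l2 and Smcr8 showed the same pattern, with S2 at 0.415, 0.920001, 0.772, 0.623, 0.505 and 0.742 CPM. S2 was the lowest library for 17 of the 20 most variable genes and S1 for 3. The shares of all genes with S2 or S1 lowest were not counted, so these counts have nothing to be set against. S4 was highest for 12 and S3 for 8, against 23.3% and 26.3% of all genes that passed the filter. The 20 genes were picked by these same values, under a threshold on the mean that a high library can meet by itself. Mylk and Rxfp1 are among the 20 but did not pass the filter. The counts by library are therefore no test.

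The span of a gene on the chromosome, introns included, moved with these differences. Of 7722 genes with a known span, in the 25% with the shortest, a median of 5.78 kb, S2 lay 0.19 log2 units above the 4-library mean of a gene, and in the 25% with the longest, a median of 102 kb, it lay at -0.22. S3 showed the reverse, from -0.21 to 0.22. The genes past 4-fold with S2 lowest had a median span of 72.0 kb, against 25.005 kb for all of these genes. The part of gene span, of the spike-in share and of RNA quality in the differences between libraries was not tested.

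At the other end, Dera, an enzyme of deoxyribose breakdown, had 75.4, 76.2, 76.8 and 76.3 CPM. Rhot1, which moves mitochondria, had 44.8, 44.9, 45.6 and 45.2 CPM. Pa2g4, Psmd11, Eftud2, Mrpl13, Tnpo3, Plp2, Cct8 and Spart completed the 10 genes with the smallest SD of log2 CPM, and Spart, with the widest range of the 10, differed by 1.06-fold.

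Among 14 gene programs, the libraries were furthest apart for G2 and mitosis. In S1, S2, S3 and S4 in turn, the median member lay -0.95, -0.48, 0.42 and 1.18 log2 units from its 4-library mean, relative to the median of all genes. Of 39 mitotic genes with a row, 30 passed the filter and all of these exceeded 2-fold, against the 41.6% of all genes. That share is not matched for level, since only 10 mitotic genes were at a mean of 10 CPM or more. Genes with fewer reads passed 2-fold more often, as 2462 of 8294 did at that level against 4574 of all 11005. Top2a, a topoisomerase of dividing cells, was at 2.63, 3.32, 15.3 and 28.9 CPM. Anln, anillin, a ring protein of cell division, was at 3.93, 7.03, 39.5 and 29.6 CPM. Cenpf, of the centromere, was at 3.87, 3.03, 16.4 and 21.4 CPM. Mki67, a proliferation marker, had 5.49, 4.54, 22.1 and 20.001 CPM. For these 4 genes S1 and S2 were low and S3 and S4 high. Apart from Dlgap5, no mitotic gene averaged above 21.1 CPM.

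The median of the S-phase genes moved less between libraries. The DNA replication list lay within 0.37 log2 units, although 17 of its 35 genes exceeded 2-fold, against the 41.6% of all genes. Here too that share is not matched for level, as only 19 of the replication genes were at a mean of 10 CPM or more. Examples of even members were Pcna at 92.3, 99.7, 70.3 and 89.3 CPM and Mcm2 at 34.5 ± 5.27 CPM. Rrm2 and Tk1 were less even. Rrm2, a subunit of ribonucleotide reductase, was at 3.07, 0.386, 8.43 and 28.7 CPM. Tk1, thymidine kinase, was at 2.33, 0.326, 6.14 and 20.3 CPM. Both were lowest in S2 and highest in S4.

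Targets of the mechanosensitive factors YAP and SRF had the second widest spread, at -0.54, -0.402, 0.32 and 0.63 log2 units in S1, S2, S3 and S4. The list shares Acta2, Cnn1, Myl9, Tagln and Tpm1 with the contractile genes above. F3, tissue factor, which starts coagulation, had 75.6, 227, 654 and 976 CPM, a 12.9-fold range, with S1 and S2 below S3 and S4. Thbs1, already given, belongs to the list, and Ankrd1, its classical YAP target, was at 0.0295, 4.18, 0.682 and 6.48 CPM. Cyr61 and Ctgf, in contrast, stayed within 1.48-fold and 1.55-fold.

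Ribosomal protein genes ran the other way relative to the median of all genes, though not on the spike-in scale, at 0.13, 0.55, -0.296 and -0.45 log2 units, with S2 the highest library for 58 of 63 genes, against 31.6% of all genes. Scaled to the spike-ins and with no median taken off, the same genes lay at -0.23, -0.57, 0.47 and 0.32 log2 units, so that S2 was then the lowest library. Rps28, of the small subunit, had 388, 512, 188 and 203 CPM. Rpl41, of the large subunit, had 897, 1141, 424 and 499 CPM. For both genes S1 and S2 were above S3 and S4. Without S2 the list's range fell from 0.998 to 0.61 log2 units. Nuclear-encoded respiratory chain genes were also highest in S2, for 41 of 56 genes, and lowest in S3 for 49, where 27.1% of all genes were lowest. On the spike-in scale these genes too turned over, to -0.17, -0.72, 0.297 and 0.65 log2 units. For G2 and mitosis the spike-in values were -1.31, -1.61, 1.201 and 1.96 log2 units, with S1 and S2 still below S3 and S4. Ndufa2, a subunit of complex I, had 40.05, 58.9, 19.4 and 24.6 CPM. Cox6c, of complex IV, had 134, 197, 66.1 and 101 CPM. The median span was 3.13 kb for the ribosomal genes and 7.09 kb for the respiratory genes, against 28.3 kb for the mitotic genes, and the part of span in this order was not tested.

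Antioxidant genes of the NRF2 program lay within 0.49 log2 units. Their most read member was Ftl1, and Hmox1, heme oxygenase, had 2722, 2687, 2120.4 and 1589 CPM. Mt2A, a metallothionein, had 453, 736, 459 and 184 CPM, and without S4 its range was 1.62-fold. Slc7a11, the cystine transporter, had 73.3, 65.4, 63.1 and 22.9 CPM and was lowest in S4 as well. Gclc, of glutathione synthesis, had 67.6, 63.5, 142 and 59.7 CPM, with S3 high. Gstp1, a glutathione transferase, had 244, 347, 129.6 and 151 CPM.

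Hypoxia and glycolysis genes as a list varied by 0.39 log2 units, with S3 highest for 21 of 36 genes, against 26.3% of all genes. Some HIF targets were low in S4. Egln3, an oxygen-sensing hydroxylase, had 148, 193, 236 and 33.4 CPM. Ndrg1, a stress-responsive gene, had 516, 579.5, 736 and 186 CPM. Hk2, hexokinase 2, had 639, 827, 560.1 and 184 CPM. Without S4 the ranges of Egln3 and Hk2 were 1.60-fold and 1.47-fold. Others in the same list were steady, such as Car9, a carbonic anhydrase, at 674, 718, 798 and 719 CPM, and Bnip3, of mitophagy, at 1088 ± 158 CPM.

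The programs for cholesterol synthesis, lysosome, interferon, NF-κB, p53, endoplasmic reticulum stress and mitochondrially encoded respiratory genes each stayed within 0.47 log2 units in their medians. Single members could still differ, as 21 of 32 NF-κB genes exceeded 2-fold, against 41.6% of all genes that passed the filter. The median fold of these NF-κB genes was 2.81, against 1.82 for all genes that passed it. Insig1, which restrains sterol synthesis, averaged 1258 ± 139 CPM, the p53 target Cdkn1a 561 ± 146 CPM, the lysosomal Psap 2291 ± 422 CPM and the adhesion molecule gene Icam1 182 ± 20.9 CPM. Ptgs2, the inducible cyclooxygenase, was one of these, at 167, 224, 657 and 486 CPM, low in S1 and S2 and high in S3 and S4.

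**Figure D5:**
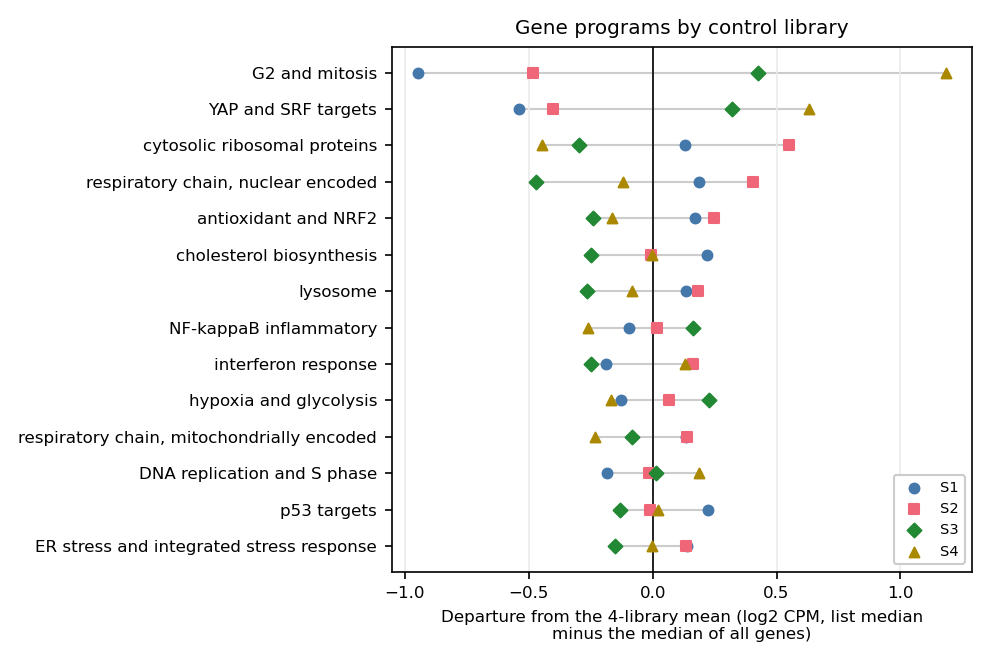
For each of 14 gene programs, the median over its genes of log2 CPM minus the 4-library mean, less the same median over all genes, in each Sirt6-Ctrl library, ordered by width. The line at 0 marks the 4-library mean. G2 and mitosis and the YAP and SRF targets have S1 and S2 on the left and S3 and S4 on the right, whereas ribosomal proteins and the nuclear-encoded respiratory chain show the reverse, which turns over on the spike-in scale.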

How the data were processed

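RNA of Sirt6-Ctrl NP cells was sequenced in 4 libraries (S1 to S4), labelled as separate samples of 1 group. The authors deposited raw counts per gene, including ERCC spike-ins. Per the labels' processing notes, Trimmomatic 0.36, STAR 2.5.2b, featureCounts of Subread 1.5.2 and DESeq2 were used with Rnor_6.0. Strandedness was not given in the sources used here, so overlapping and antisense genes cannot be told apart. Multigene families such as ribosomal proteins may share reads with copies, which makes their counts uncertain. Gene names came from the name column of the deposited comparison table, whose fold changes, p-values and normalized values were not used, and 44 names held by more than 1 entry were left out.

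Counts without ERCC were scaled by TMM in edgeR 4.0.16 (R 4.3.3, limma 3.58.1, DESeq2 1.42.0 for alternatives) and summarised with Python 3.11.15, numpy 2.4.6, pandas 2.3.3 and matplotlib 3.10.9. Gene reads numbered 31010859 to 38932384 per library, with a floor of 3 reads that covers counting error only. Variation was counted over genes passing filterByExpr, or with a mean of 10 CPM or more. Principal components used log2 CPM (prior count 2) of the 500 most variable genes. Program values are medians of log2 CPM minus the 4-library mean, less that of all genes. No test was run, since only 1 group was described, and the variation between libraries may be technical. Scripts were tested on simulated data.

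Named genes were the 25 with the most reads, the 5 most read of each list and its absences, all NP markers and the most read of other markers, the 20 most and 10 least variable, the 10 largest loadings of each sign and the 4 widest members of the 5 widest programs, of which a selection is printed. The rule had set levels per length, and reads replaced them because no lengths were at hand. Further genes, such as Sim2, Tnc, Tnn, Bmp4, Egln3, Hk2 and Vegfa, were chosen after their values were seen. Hoxd10, Hoxd11 and Hoxd13 were also named outside the rule. Some genes that the rule names are not reported here. The lists were chosen with earlier results of these data known. Gene spans and promoters came from RefSeq on GRCr8, matched by symbol for 7722 of 8294 genes.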

Additional observations from a re-analysis of the deposited data

Results flagged for a closer look

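Of 298 groups of values examined, each a gene or a list in the 4 Sirt6-Ctrl libraries, 32 had 1 library so far from the others that its gap to the nearest, as a share of the whole range, exceeded Dixon's critical value for 4 samples. The gaps were taken on CPM or on shares of reads and not on their log2. A high library stands out more on that scale than on the log2 scale. Chance marks about 1 in 20 groups, or 15 of 298 here, a rate that was not checked for this scale. Some of the genes had been named for varying most between the libraries, so this count is no test, and the cause of each departure was not tested.

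S4 was the library that stood high in most of them. Among contractile and pericyte genes the gap share was 0.946 for Acta2, 0.932 for Lmod1, 0.916 for Myh11, 0.931 for Myl9, 0.849 for Kcnj8 and 0.908 for Acta1. Among chemokines and growth factors of the immune system it was 0.952 for Ccl2, 0.911 for Ccl7, 0.923 for Csf1 and 0.925 for the share of reads on the chemokine list. That share rested on abundant members such as Cxcl1 and Ccl2, since the median gene of the list departed by -0.35 on the log2 scale in S4, its lowest library. Among matrix, signalling and other genes it was 0.858 for Ccdc80, 0.926 for Tgfb3, 0.930 for Rxfp1, 0.981 for Fam111a, 0.839 for Ntn4, 0.898 for Tnc, 0.884 for Wisp2 and 0.987 for Bmp4. Bmp4 encodes a bone morphogenetic protein, and its gap was the widest of the S4 genes.

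S3 stood high with a gap share of 0.832 for Actg1, 0.876 for Car12, 0.979 for Foxa2 and 0.905 for Gclc. Foxa2, a notochord factor, rested on few reads in every library. S3 stood low with 0.848 for Sparc, 0.962 for Serpinh1, 0.912 for Egfl7 and 0.875 for S100b, of which Sparc and Serpinh1 take part in the making of collagen.

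S2 stood high with 0.858 for Pgk1, 0.873 for Sox9, 0.928 for Rsad2 and 0.893 for Rpl8, although the range of Pgk1 was small. The low row of Rpl8, as given above, cannot be read as the level of this gene. S2 stood low with 0.904 for rnf141. S1 stood low with 0.849 for Nr3c2, the gene of the mineralocorticoid receptor.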

How the results depend on the processing

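Spike-in scaling turned the order of libraries for 73 of 258 named genes and for the ribosomal and nuclear-encoded respiratory programs. The further alternatives were other scalings, filters, pseudocounts, gene numbers for the principal components and the omission of each library in turn. Counts, shares, coefficients of variation and ranges without a library are always positive, so a reversal could not appear in them. Program values could reverse under DESeq2 size factors or another prior count, and none did. The mean share of reads in the 100 most read genes was 26.4% with spike-in reads kept in the total, against 27.9%. The count of genes past 2-fold, 4574, became 7389 with no filter and a pseudocount of 0.5 CPM, 2462 among genes at a mean of 10 CPM or more, and 10595 with spike-in scaling, which shifts whole libraries against each other. Set against the median of all genes, that scaling gives 4574 again by its construction, as it does for the program values. Genes past 4-fold numbered 432, or 60 at a mean of 50 CPM or more, and 177 to 393 when 1 library was left out. The common biological coefficient of variation was 0.751 with no filter, against 0.388. Of 79 named genes past 4-fold, 22 stayed within 2-fold without 1 library, which was S4 for 14 of them. With DESeq2 size factors or library totals, 514 values of 257 named genes were examined. A reversal was looked for only in the genes past 2-fold, and none was found. The cause of these changes was not tested.

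The thresholds of 50 CPM and of 4-fold without each library, the spike-in scaling set against the median and the programs limited to genes at 10 CPM or more were chosen after seeing the data. Class shares per transcript length were not run for lack of lengths. No paired analysis was possible because the 4 libraries form 1 group. Genes of few reads, such as Foxa2, are limited by depth, and with 4 libraries of 1 group a library that departs cannot be told apart from one that varies as others would.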
